A study of Mus musculus with 40 samples.

Results

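The secreted factors and adipokines of brown fat described here are the products of 10 genes: Adipoq, Lep, Retn, Cfd, Fgf21, Bmp8b, Nrg4, Vegfa, Il6 and Gdf15. They were taken by gene name from the deposited count table, in which each name matched 1 Ensembl identifier, so they are 10 of 52636 genes. All 10 passed the filter on low counts that left 17079 genes for testing. Bulk RNA was sequenced from brown adipose tissue of 40 male C57BL/6 mice, 5 in each of 8 groups. Every mouse had an intraperitoneal antibody dose. Control mice received an isotype antibody to ragweed at 40 mg/kg. Jag antibody mice received blocking antibodies to the Notch ligands Jag1 and Jag2 at 20 mg/kg each. Brown fat was taken from separate groups after 15 h, 5 d and 7 d. A further group under each antibody had daily thyroid hormone beginning on day 2 (T4 at 1 ug and T3 at 0.05 ug for each g of the mouse) and was taken at 7 d. The mice were at least 10 weeks old, and the upper age is given as 12 weeks in the series text and 14 weeks in the sample text. The dose was systemic, so every tissue of the animal was exposed, and no group without antibody was among the samples. The series is about Notch signalling in the thyroid, and its design asks how ligand blockade alters brown fat and whether added hormone changes that.

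Fat cells release hormones. Adiponectin (Adipoq), leptin (Lep), resistin (Retn) and adipsin (Cfd, complement factor D) are classical products of adipocytes, with roles in insulin sensitivity, appetite, metabolism and the alternative complement pathway. Brown adipocytes also send signals that act on blood vessels, nerves, liver and on the brown fat itself: Fgf21 and Gdf15 are stress-induced metabolic hormones, Bmp8b is a bone morphogenetic protein tied to thermogenesis, Nrg4 is an epidermal growth factor family ligand, Vegfa drives vessel growth and Il6 is a cytokine. Notch ligands such as Jag1 and Jag2 act on neighbouring cells, where the cleaved receptor joins the DNA-binding protein RBPJ, and thyroid hormone acts through nuclear receptors.

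The 250 bases before the RefSeq transcription start (GRCm38.p6) are shown for the pair of members that fell with hormone under both antibodies, Adipoq and Cfd, and for the pair that were lower under the Jag antibodies at 7 d, Fgf21 and Bmp8b. Capitals mark matches, on either strand, to any of 6 motifs: TGGGAA for RBPJ, TTGCNNAA for C/EBP factors, AGGTCA for nuclear receptors, TGACGT for CREB, TGATGNAA for ATF4 with a C/EBP factor and ACGTG for the hypoxia response. TGACGT and ACGTG can overlap. The Adipoq window, chr16:23146286-23146535 on the plus strand, held the RBPJ motif on the minus strand, 110 to 105 bases before the start. The Cfd window, chr10:79890603-79890852 on the plus strand, held none of the 6. The Fgf21 window, chr7:45615491-45615740 on the minus strand, held the ATF4 motif on the opposite strand, 139 to 132 bases before the start, and a palindrome with ACGTG on both strands at 50 to 45 bases. The Bmp8b window, chr4:123104911-123105160 on the plus strand, held ACGTG at 112 to 108 bases.
Adipoq: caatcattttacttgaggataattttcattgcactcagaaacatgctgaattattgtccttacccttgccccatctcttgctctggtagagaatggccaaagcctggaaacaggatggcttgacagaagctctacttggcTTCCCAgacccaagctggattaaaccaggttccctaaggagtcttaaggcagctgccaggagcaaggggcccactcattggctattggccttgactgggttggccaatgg
Cfd: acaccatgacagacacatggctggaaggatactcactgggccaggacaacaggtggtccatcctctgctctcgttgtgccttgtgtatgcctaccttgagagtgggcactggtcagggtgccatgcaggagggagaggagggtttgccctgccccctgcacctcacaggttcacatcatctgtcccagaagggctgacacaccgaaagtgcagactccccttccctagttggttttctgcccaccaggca
Fgf21: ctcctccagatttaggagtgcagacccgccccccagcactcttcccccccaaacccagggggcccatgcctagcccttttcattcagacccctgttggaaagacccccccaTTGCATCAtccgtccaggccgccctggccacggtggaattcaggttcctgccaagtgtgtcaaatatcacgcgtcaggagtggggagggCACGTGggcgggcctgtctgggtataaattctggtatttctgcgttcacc
Bmp8b: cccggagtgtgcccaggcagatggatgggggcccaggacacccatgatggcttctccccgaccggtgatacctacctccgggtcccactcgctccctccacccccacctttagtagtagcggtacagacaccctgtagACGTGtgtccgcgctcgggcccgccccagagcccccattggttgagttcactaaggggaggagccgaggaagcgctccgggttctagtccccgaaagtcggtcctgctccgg

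These matches describe letters in the windows and not binding. Among 32851 RefSeq windows of the same length, TGGGAA was in 21.6%, TTGCNNAA in 9.56%, AGGTCA in 14.0%, TGACGT in 6.47%, TGATGNAA in 3.45% and ACGTG in 16.6%. The 10 members have 12 windows, of which TGGGAA was in 5 (windows of Adipoq, Gdf15, Il6 and Vegfa), ACGTG in 5 and each of the other 4 motifs in at most 2. The ATF4 motif was in a window of 1 member, Fgf21.

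The members spanned nearly the whole range of expression in brown fat. Per kb of exonic length, the median CPM (counts per 1e6 of the TMM-scaled library) over the 40 mice was 2300 for Cfd, rank 13 of 17055 genes of known length, and 1241 for Adipoq, rank 26. It was 119 for Vegfa, 63.3 for Retn, 21.5 for Lep and 18.9 for Nrg4. The remaining 4 were scarce, at 0.19 CPM per kb for Fgf21, 0.161 for Gdf15, 0.133 for Bmp8b and 0.0453 for Il6, ranks 14967 to 16650. Cfd reached 10530 CPM in 1 mouse. Il6 had no count in 13 of 40 libraries, Fgf21 in 5, Bmp8b in 3 and Gdf15 in 2. A count of 0 allows up to 3 counts in that library, and intervals on summed counts below cover counting error only.

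Spread between mice of a group also separated the members. The pooled within-group SD of log2 CPM was 0.39 for Nrg4 and Adipoq and 0.40 for Vegfa, below the median of 0.47 over all genes tested. It was 0.80 for Cfd, 0.85 for Fgf21, 0.88 for Bmp8b, 0.95 for Lep, 1.22 for Retn, 1.24 for Gdf15 and 1.5 for Il6. The same fold change is therefore measured with less error for Nrg4 and Adipoq than for Retn, Gdf15 and Il6.

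**Figure D1:**
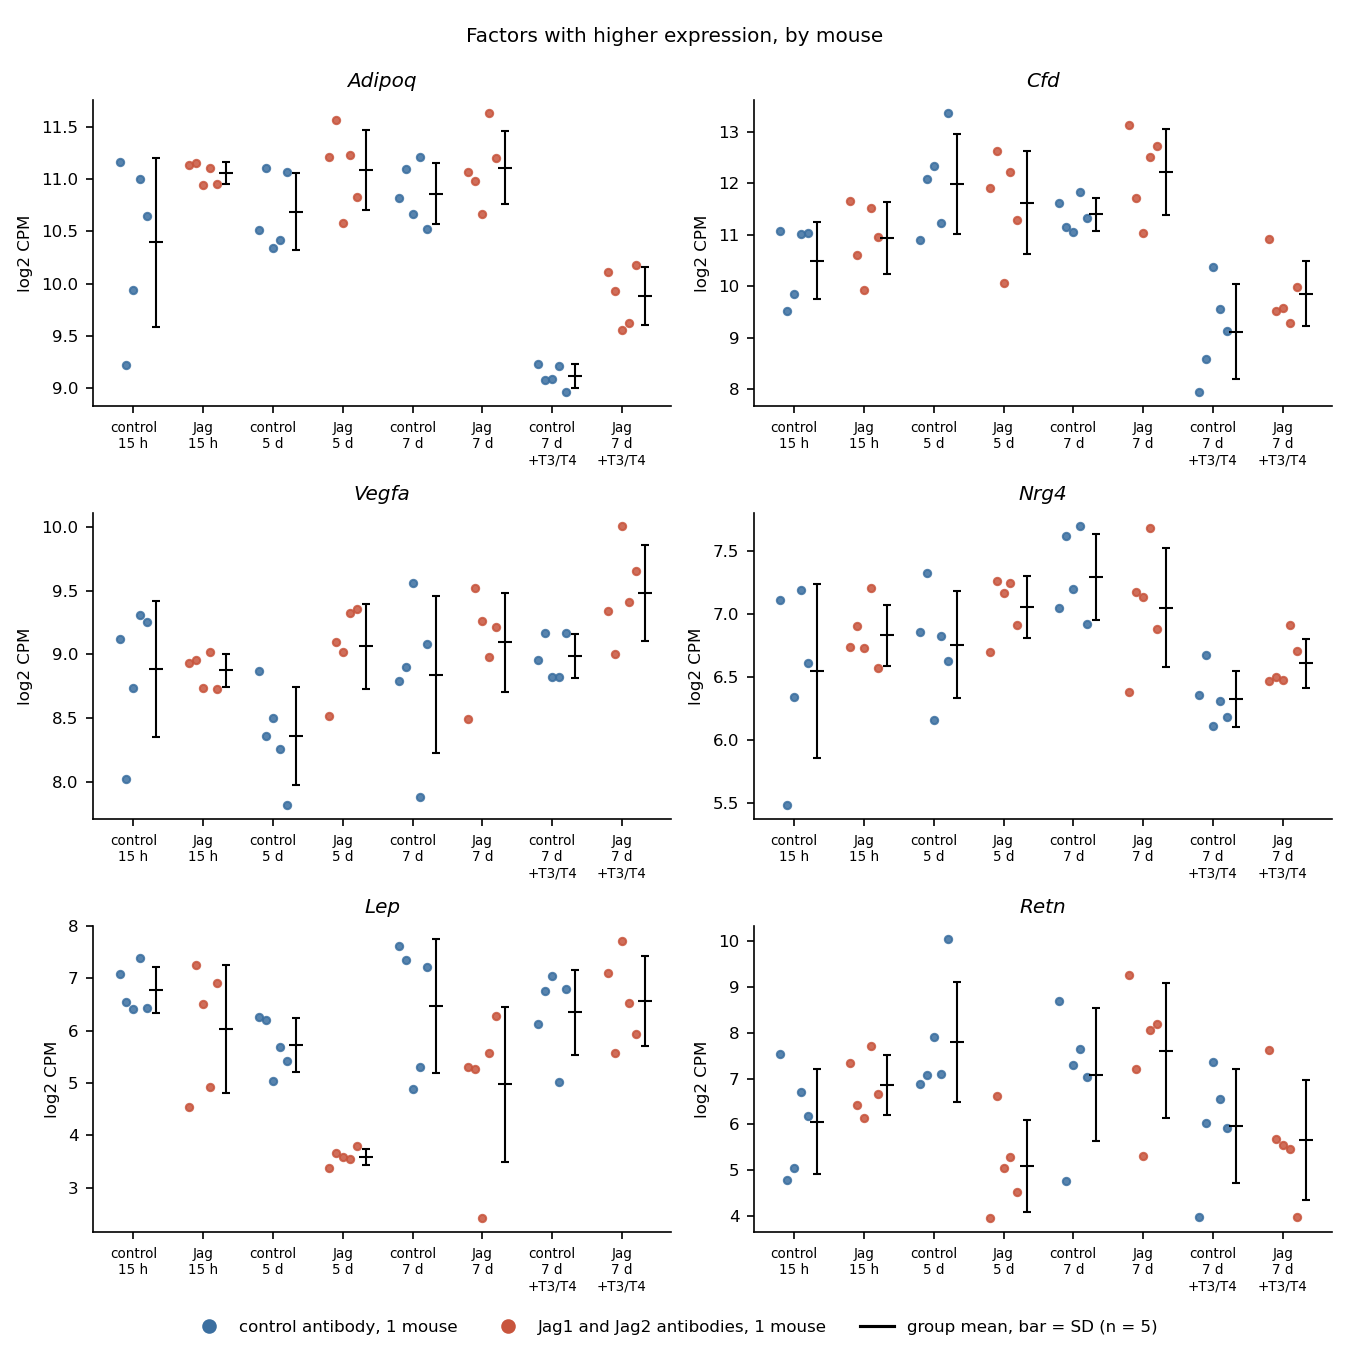
log2 CPM of the 6 abundant members in each of the 40 mice, by group; points are mice and bars are the mean with its SD (n = 5). Adipoq and Cfd were lowest in control mice given T3 and T4, and Lep in Jag antibody mice at 5 d spanned only 10.27 to 13.72 CPM.

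**Figure D2:**
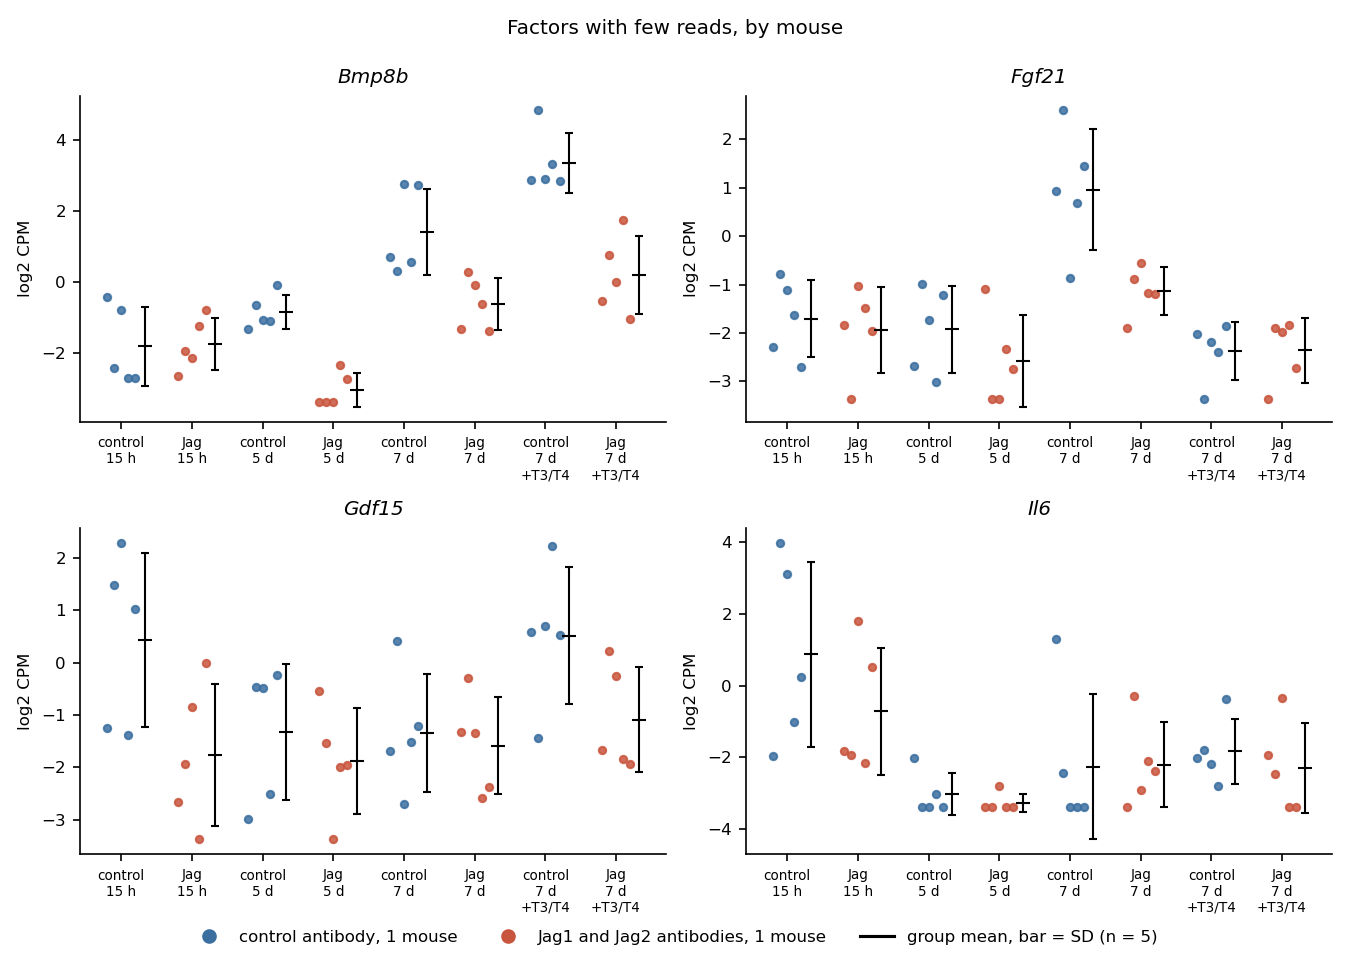
log2 CPM (prior count of 2) of the 4 scarce members in each mouse, by group, with the mean and SD (n = 5). Bmp8b was highest in control mice given hormone, where its counts ran from 145 to 739, and the highest values of Il6 were those of control mice 2 and 3 at 15 h.

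Total counts per mouse ran from 12217623 to 36511893 (median 18949808), and no pair of mice in a group agreed within sampling noise (lowest chi-square per degree of freedom 19.4). All 9 markers of brown adipocytes passed the filter, as did 3 of 7 markers of white or subcutaneous fat. Those 7 summed to 23.0 to 298 CPM over the 8 groups, the highest in a control mouse at 15 h, and Tcf21 was at 0 in every group. Control mice 2 and 3 at 15 h stood apart. Their macrophage scores, the mean log2 CPM of 8 markers, were 8.06 and 7.30 and their brown adipocyte scores 5.81 and 6.45. Results of members that rest on them are therefore also given without them.

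Bmp8b, Fgf21, Lep and Retn were the members that differed between antibodies, and Adipoq, Cfd, Fgf21, Nrg4, Bmp8b and Gdf15 those that differed with hormone. A gene is called here when the adjusted p of edgeR's quasi-likelihood test, over all 17079 genes, is under 0.05. Of the 10 members, 0 were called between antibodies at 15 h, where 1.14% of all genes were, 3 were lower at 5 d (5.93% of genes) and 2 were lower at 7 d (1.29%). With hormone, 1 was lower under the Jag antibodies (0.439% of genes). Thyroid hormone in control mice went with 2 members higher (20.3% of genes) and 4 lower (22.9%), and in Jag antibody mice with 2 lower (5.21%). Jag antibody mice with hormone had 4 members lower than control mice without it (20.6% of genes). From 15 h to 7 d, 3 members were higher (21.6% of genes) and 2 lower (23.5%) in control mice, and 1 was higher (10.4%) in Jag antibody mice. At 15 h 3 members, Adipoq, Il6 and Gdf15, had an unadjusted p under 0.05 by edgeR, and DESeq2 also called 0. A share of the members near that of all genes, as for the 2 higher with hormone or the 2 lower at 7 d in control mice, is no result about the members.

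**Figure D3:**
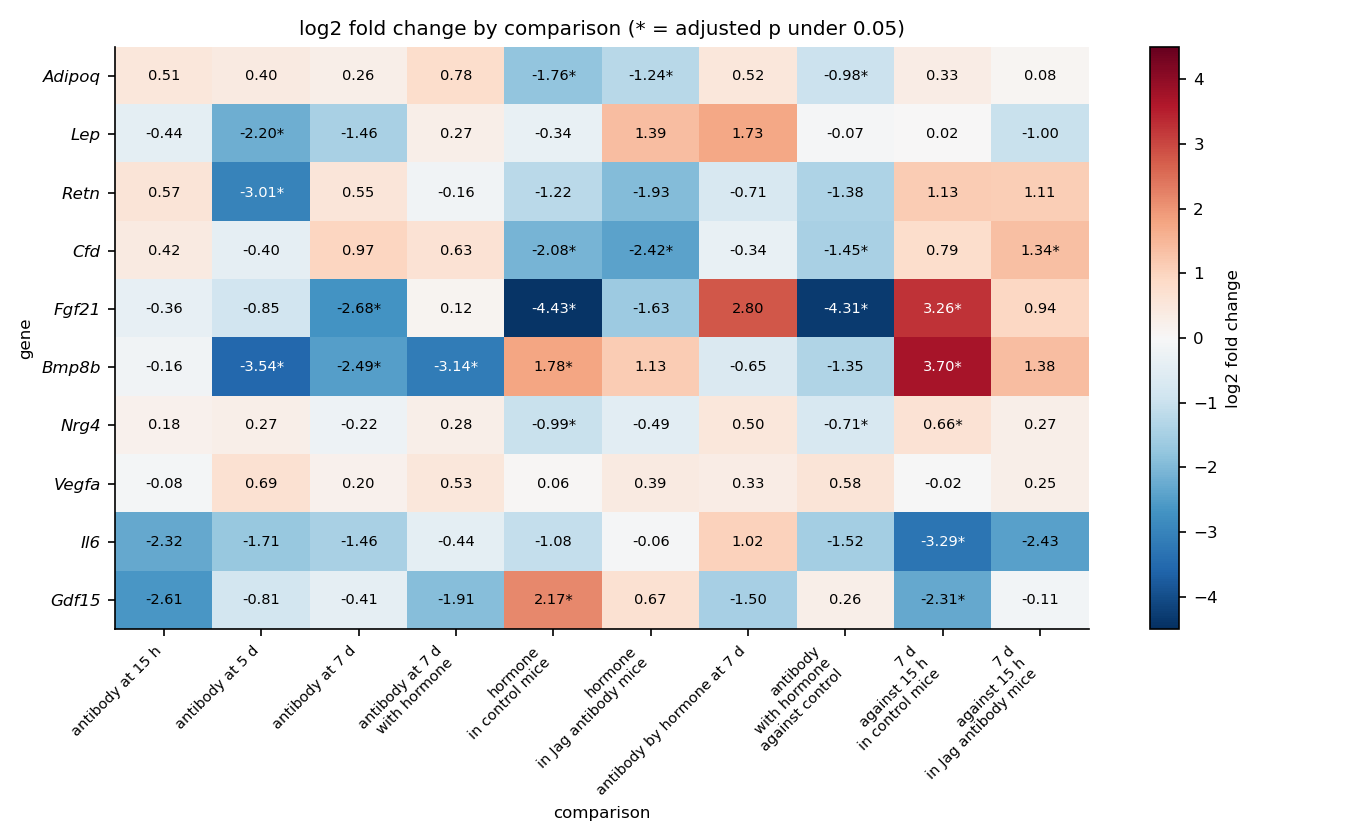
log2 fold changes of the 10 members (rows) in 10 comparisons (columns), with a star where the adjusted p is under 0.05. The stars fall on Bmp8b in 5 columns, Fgf21 and Cfd in 4, Adipoq in 3, and Vegfa in none.

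The groups of 5 mice did not overlap for 0 members between antibodies at 15 h (2.48% of all genes) and for 3 at 5 d (4.94%). They were apart for 1 at 7 d (3.31%) and for 2 with hormone added (6.59%). They did not overlap for 5 members with hormone in control mice (29.8% of genes), 2 in Jag antibody mice (12.0%) and 4 between Jag antibody mice with hormone and control mice without it (27.0%). Between 15 h and 7 d the groups were apart for 1 member in control mice (25.6% of genes) and 0 in Jag antibody mice (16.8%). Both groups taken at 7 d without hormone serve in several comparisons, which are therefore not independent of each other.

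Adiponectin fell with hormone under both antibodies and was not called between antibodies. Adipoq (ENSMUSG00000022878, chromosome 16, 23146536 to 23158028, plus strand, GRCm38), with 1381 bases of exon, had 1801, 2184, 1621, 2365 and 1467 CPM in control mice at 7 d. Control mice given hormone had 602.5, 539.5, 545.4, 593.9 and 498.3 CPM. All 5 hormone mice were below all 5 without it, and Adipoq fell 3.4-fold (log2 fold change -1.76, SE 0.25, adjusted p = 6.05e-06). In these bulk samples fewer adipocytes and less of the transcript per adipocyte cannot be told apart.

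Jag antibody mice showed the same direction. Their Adipoq was 2144, 2017, 1627, 3159 and 2352 CPM at 7 d and 1107, 977.6, 752.9, 790.1 and 1157 CPM with hormone, again without overlap, a 2.36-fold fall (log2 fold change -1.24, SE 0.25, adjusted p = 0.00137). Hormone-treated mice under the Jag antibodies were all above those under the control antibody, but the difference of 0.78 on the log2 scale (SE 0.25, adjusted p = 0.116) did not pass the test, except when only the groups compared were fitted (0.77, adjusted p = 0.0162). The difference between the hormone effects under the antibodies was 0.52 (SE 0.35, adjusted p = 0.497) and was not called. In Jag antibody mice with hormone, Adipoq was also lower than in control mice without it (log2 fold change -0.98, SE 0.25, adjusted p = 0.00234).

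By mean log2 CPM the groups without hormone lay between 10.39 ± 0.81 (control, 15 h) and 11.11 ± 0.35 (Jag antibodies, 7 d; SD, n = 5). Neighbours in that order differed by less than the larger of their SDs. The hormone groups lay below, at 9.88 ± 0.28 under the Jag antibodies and 9.12 ± 0.11 under the control antibody. At 15 h, control mice had 2297, 595.4, 979.6, 2043 and 1599 CPM and Jag antibody mice 2237, 2282, 1967, 2199 and 1979. The low pair are control mice 2 and 3. The log2 difference of 0.51 (SE 0.24, adjusted p = 0.40) was not called, and without those mice it was 0.11.

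Adipsin shared the fall with hormone but varied more between mice. Cfd (ENSMUSG00000061780, chromosome 10, 79890853 to 79892655, plus strand, 922 bases of exon) had 3156, 2287, 2136, 3643 and 2578 CPM in control mice at 7 d and 245.1, 386.2, 1327, 752 and 558.7 CPM with hormone. The highest hormone mouse was below the lowest mouse without it, a 4.22-fold fall (log2 fold change -2.08, SE 0.49, adjusted p = 0.00102). In Jag antibody mice Cfd had 8972, 3369, 2105, 5843 and 6789 CPM at 7 d and 1926, 737.5, 764.3, 626.9 and 1014 CPM with hormone, a 5.34-fold fall without overlap (log2 fold change -2.42, SE 0.50, adjusted p = 0.0018).

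Between antibodies Cfd was not called at any time, its largest difference being 0.97 at 7 d (SE 0.48, adjusted p = 0.237). It rose from 15 h to 7 d in Jag antibody mice (log2 fold change 1.34, SE 0.48, adjusted p = 0.0464), a call that 5 of 9 alternative settings and 7 of 10 omissions of a mouse ended. At 7 d against 15 h their slope of expression on transcript length was -0.06 against 0.1. The mitochondrial share of counts was 17.25% against 25.54%, both without overlap (exact permutation p = 0.00794, adjusted 0.0442). Their part in the rise of Cfd was not tested. Jag antibody mice with hormone were at -1.45 on the log2 scale against control mice without it (SE 0.48, adjusted p = 0.0169). That call was lost with length and GC offsets (-0.76, adjusted p = 0.132). The highest single value, 10530 CPM, was in control mouse 5 at 5 d, whose skeletal muscle score of 13.71 was also the highest of its group.

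Other measures also moved with hormone in control mice. The mean log2 CPM of the adipocyte markers was 9.98 with hormone against 10.58 without, and that of the brown adipocyte markers 7.38 against 8.54. The score of 8 macrophage markers was 5.93 against 3.44, and their summed level was 647 to 1270 CPM with hormone and 126 to 299 without. Progenitor and fibroblast markers were at 6.76 against 4.99, the mitochondrial share of counts at 12.78% against 19.99%, and the slope of expression on transcript length at 0.18 against -0.24. Each of these differed without overlap (exact permutation p = 0.00794, the smallest 5 against 5 mice can give, adjusted 0.0442 over 117 tests). The part of cell composition in the falls of Adipoq, Cfd, Nrg4 and Fgf21 was not tested. With length and GC trends removed, the log2 fold changes were -1.17 for Adipoq, -1.39 for Cfd, -1.35 for Nrg4 and -3.77 for Fgf21, and all 4 were also called in that fit. In Jag antibody mice the length slope was 0.12 with hormone against -0.06 without, again without overlap (exact permutation p = 0.00794, adjusted 0.0442). The adipocyte markers were there at 10.15 against 10.56 and the macrophage markers at 5.59 against 4.02 (exact permutation p = 0.0317 each, adjusted 0.0929), and progenitor and fibroblast markers at 6.16 against 4.91 (0.0159, adjusted 0.064). Their part in the falls of Adipoq and Cfd in Jag antibody mice was not tested.

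**Figure D4:**
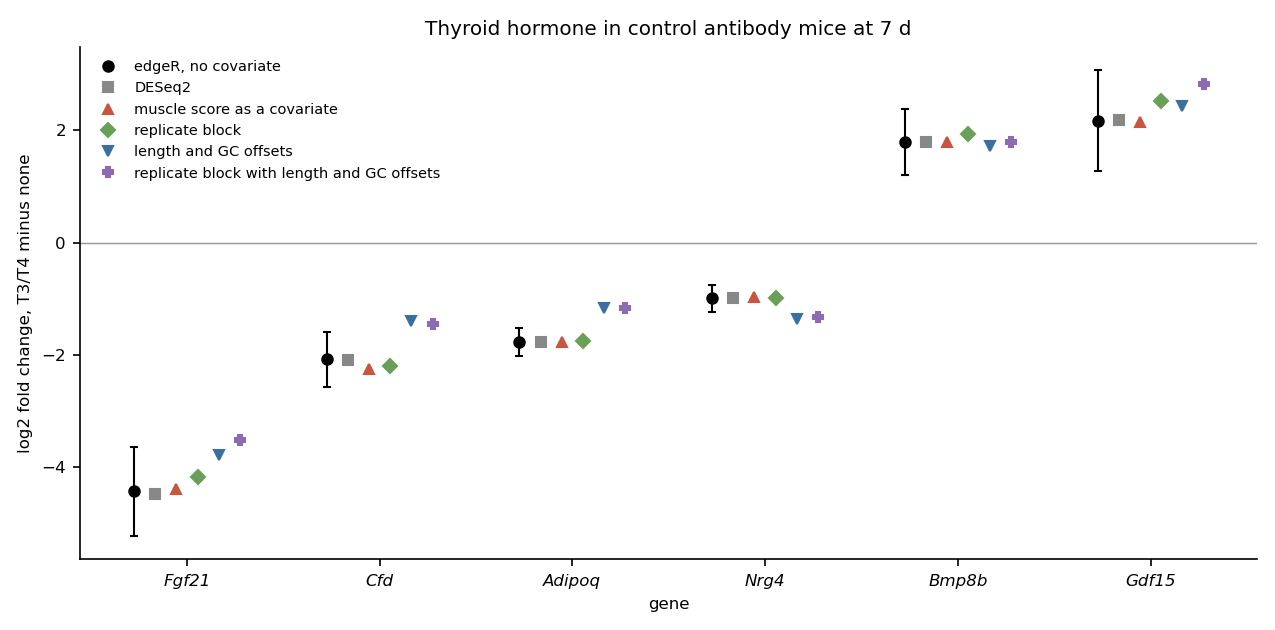
log2 fold change with hormone in control mice of the 6 called members under 6 settings of the test; bars on the edgeR values are SE. Every setting gives the same sign for each member, and the offsets for length and GC bring Adipoq from -1.76 to -1.17.

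Leptin differed between antibodies at 5 d. Lep (ENSMUSG00000059201, chromosome 6, 29060220 to 29073877, plus strand) had 76.37, 73.7, 32.97, 51.38 and 42.62 CPM in control mice and 10.27, 12.62, 11.87, 11.64 and 13.72 CPM in Jag antibody mice. The groups did not overlap, and Lep was 4.61-fold lower under the Jag antibodies (log2 fold change -2.20, SE 0.55, adjusted p = 0.0131). At 15 h its difference was not called. Control mice at 7 d had 195.8, 162.8, 29.69, 39.26 and 148.1 CPM and Jag antibody mice then had 39.72, 38.53, 5.232, 47.82 and 77.64, overlapping groups whose log2 difference of -1.46 (SE 0.54, adjusted p = 0.13) did not pass.

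With hormone, Lep in Jag antibody mice was 136.7, 47.45, 211.1, 92.06 and 61.36 CPM, against 70.33, 108.1, 132.8, 32.43 and 111.6 in control mice. Its hormone effect in Jag antibody mice was 1.39 on the log2 scale (SE 0.53, adjusted p = 0.0885), called by DESeq2 (adjusted p = 0.0423) but not by edgeR, and -0.34 (SE 0.52, adjusted p = 0.629) in control mice. The difference of these effects, 1.73 (SE 0.75, adjusted p = 0.375), was not called. By mean log2 CPM, Lep was lowest in Jag antibody mice at 5 d (3.59 ± 0.15, SD, n = 5), next at 7 d (4.97 ± 1.49) and highest in control mice at 15 h (6.77 ± 0.44).

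Resistin followed at 5 d with much larger spread. Retn (ENSMUSG00000012705, chromosome 8, 3655770 to 3660110, plus strand) had 118.6, 134.3, 241.8, 137.9 and 1050 CPM in control mice and 15.4, 98.75, 33.21, 38.88 and 22.97 CPM in Jag antibody mice. It was 8.05-fold lower under the Jag antibodies without overlap (log2 fold change -3.01, SE 0.79, adjusted p = 0.0181). Control mouse 5 carries much of that size, and without it the value was -1.96 (adjusted p = 0.132). The call was also lost without Jag antibody mouse 6, 8 or 10 (adjusted p = 0.0521 to 0.0526). At 7 d the groups spanned 27.14 to 414.8 CPM in control and 39.69 to 611.6 CPM in Jag antibody mice and overlapped.

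The antibody difference in Retn was -3.58 at 5 d relative to that at 15 h on the log2 scale (SE 1.07, adjusted p = 0.117) and the one at 7 d was 3.56 higher than that at 5 d (SE 1.07, adjusted p = 0.0704). Neither passed edgeR's test, while DESeq2 called both (adjusted p = 0.0205 and 0.0115). The hormone difference of Retn was -1.22 (SE 0.74, adjusted p = 0.184) in control and -1.93 (SE 0.76, adjusted p = 0.0958) in Jag antibody mice on the log2 scale, neither called.

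Skeletal muscle transcripts differed between the 5 d groups. The score of 8 muscle markers was 9.90 ± 3.31 (SD, n = 5) in control and -0.14 ± 1.95 in Jag antibody mice without overlap (exact permutation p = 0.00794, adjusted 0.0442), and the markers summed to 1020 to 176000 CPM against 0.878 to 43.9 CPM. With that score as a covariate, Lep was at -2.02 (adjusted p = 0.132), Retn at -1.92 (adjusted p = 0.377) and Bmp8b at -3.82 (adjusted p = 0.083). Because the scores of the groups do not overlap, muscle content and antibody at 5 d cannot be told apart. In Jag antibody against control mice the score of immediate early genes was 2.38 against 3.37 and the mitochondrial share of counts 17.98% against 13.83%, both without overlap (exact permutation p = 0.00794, adjusted 0.0442). Progenitor and fibroblast markers were at 5.57 against 6.68 and brown adipocyte markers at 7.98 against 7.54 (exact permutation p = 0.0317 each, adjusted 0.0929). Their part in the 5 d differences was not tested.

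Bmp8b was the member called most often between antibodies, although its counts were small. Bmp8b (ENSMUSG00000002384, chromosome 4, 123105165 to 123132099, plus strand) had 10, 12, 11, 14 and 10 counts in control mice at 5 d and 0, 0, 0, 2 and 2 in Jag antibody mice. The sums, scaled to library size, gave a level 12.1-fold lower (95% counting interval 4.46 to 45.8), and the test put it at -3.54 on the log2 scale (SE 0.90, adjusted p = 0.0143). By limma on log2(FPKM + 1), a scale on which genes this scarce hardly move, the value was -0.03 (adjusted p = 0.895). At 7 d the counts were 29, 13, 117, 11 and 136 in control and 7, 20, 23, 8 and 6 in Jag antibody mice. The groups were only just apart, with the lowest control mouse at 1.142 CPM and the highest Jag antibody mouse at 1.114 CPM. The tested difference was -2.49 on the log2 scale (SE 0.63, adjusted p = 0.0283). The 7 d call was lost when control mouse 5 (adjusted p = 0.0755), Jag antibody mouse 6 (0.0862) or Jag antibody mouse 10 (0.0934) was left out. It was also lost without the low-count filter (adjusted p = 0.051) and with only the groups compared (0.101). By limma on log2(FPKM + 1) the 7 d value was -0.17 (adjusted p = 0.269), not called.

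Hormone went with more Bmp8b. Control mice given hormone had 145, 739, 180, 215 and 200 counts, or 7.126 to 28.53 CPM, above the 1.142 to 6.667 CPM of the mice without it, and Bmp8b rose 3.45-fold (log2 fold change 1.79, SE 0.59, adjusted p = 0.0138). Mouse 2, with 739 counts, held that call, since without it the value was 1.19 (adjusted p = 0.106). Jag antibody mice given hormone had 11, 37, 17, 89 and 7 counts, 8.8-fold lower than control mice given hormone and without overlap (log2 fold change -3.14, SE 0.62, adjusted p = 0.00518). That antibody difference under hormone was kept in every setting and with every mouse left out. In Jag antibody against control mice given hormone, pericyte and smooth muscle markers were at 4.56 against 5.44. The mitochondrial share of counts was 16.37% against 12.78% (exact permutation p = 0.0159 each, adjusted 0.064). Their part in that difference of Bmp8b was not tested. The hormone effect within Jag antibody mice was 1.13 (SE 0.62, adjusted p = 0.234), and the effects differed by -0.65 (SE 0.85, adjusted p = 0.732), neither called.

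Bmp8b also rose with time under the control antibody. The 15 h counts were 12, 2, 8, 1 and 1 in control and 1, 3, 2, 5 and 9 in Jag antibody mice. From 15 h to 7 d Bmp8b rose 13.0-fold in control mice (log2 fold change 3.70, SE 0.69, adjusted p = 8.72e-05), the member whose groups were apart, and from 5 d to 7 d it rose 7.45-fold (2.90, SE 0.65, adjusted p = 0.00668). The 5 d to 7 d comparison was added after the data were seen. Its call of Bmp8b was lost with only the groups compared and by limma on log2(FPKM + 1). That limma fit also ended the 15 h to 7 d call. In Jag antibody mice the 7 d value was 1.38 above that at 15 h (SE 0.71, adjusted p = 0.167), not called. The change of the antibody difference between 15 h and 7 d was -2.32 (SE 1.00, adjusted p = 0.229). In control mice other measures differed between 7 d and 15 h as well. The score of brown adipocyte markers was 8.54 against 6.93, that of macrophage markers 3.44 against 6.06, that of lymphocyte markers -1.19 against -0.23 and the length slope -0.24 against 0.12, each without overlap (exact permutation p = 0.00794, adjusted 0.0442). Their part in the rises of Bmp8b, Fgf21 and Nrg4 with time was not tested.

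In order of mean log2 CPM, Bmp8b was highest in control mice with hormone (3.37 ± 0.85, SD, n = 5), then control mice at 7 d (1.42 ± 1.22), Jag antibody mice with hormone (0.18 ± 1.10) and at 7 d (-0.63 ± 0.73), control mice at 5 d (-0.85 ± 0.49), Jag antibody (-1.76 ± 0.74) and control mice (-1.81 ± 1.12) at 15 h, and Jag antibody mice at 5 d (-3.04 ± 0.48). Jag antibody mice with and without hormone at 7 d, Jag antibody mice at 7 d and control mice at 5 d, and the groups at 15 h differed by less than the larger of their SDs, and the other neighbours by more. Bmp8b overlaps Oxct2b on its own strand and Ppie and Gm17244 on the other, and strand use in the counting is not given in the sources used here. Oxct2b had 0 to 3 counts per library and the paralog Bmp8a 0 to 4. Ppie had 219 to 669, with sums of 2666 and 2318 in control and Jag antibody mice at 5 d, 1926 and 1990 at 7 d, and 1792 and 1654 with hormone.

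Fgf21 stood out in 1 group, control mice at 7 d. Fgf21 (ENSMUSG00000030827, chromosome 7, 45613886 to 45615490, minus strand) had 34, 68, 8, 12 and 55 counts there and 4, 8, 16, 5 and 7 in Jag antibody mice at 7 d. The summed level was 5.98-fold lower under the Jag antibodies (95% counting interval 4.23 to 8.66), and the tested difference was -2.68 on the log2 scale (SE 0.70, adjusted p = 0.0346). The groups overlapped, and the call was lost without control mouse 2 (adjusted p = 0.16), control mouse 5 (0.0595) or any of 4 Jag antibody mice (highest 0.0997).

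With hormone, control mice had 3, 0, 3, 2 and 5 Fgf21 counts and Jag antibody mice 0, 4, 3, 5 and 1. In control mice this was 21.3-fold lower than without hormone (95% counting interval 12.1 to 40.8) and without overlap (log2 fold change -4.43, SE 0.79, adjusted p = 6.86e-05). At 13 counts in each hormone group, the ratio of Jag antibody to control was 1.13 with a counting interval of 0.482 to 2.64, so only large differences could have been seen. The antibody difference changed with hormone by 2.80 on the log2 scale (SE 1.14, adjusted p = 0.374), which was not called.

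At 15 h Fgf21 counts were 2, 11, 6, 4 and 1 in control and 3, 0, 6, 4 and 3 in Jag antibody mice, and at 5 d they were 2, 9, 6, 1 and 4 against 7, 0, 0, 2 and 2. Control mice rose from 15 h to 7 d (log2 fold change 3.26, SE 0.74, adjusted p = 0.000602) and 12.7-fold from 5 d to 7 d (3.67, SE 0.75, adjusted p = 0.00378). Fgf21 and Bmp8b were the 2 members called higher from 5 d to 7 d in control mice (4.71% of genes), and for both the groups of 5 were apart (4.41% of genes). The 5 d to 7 d comparison was added after the data were seen, so its calls are descriptive. Jag antibody mice were 0.94 higher at 7 d than at 15 h, without a call. Other measures of control mice also differed between 7 d and 5 d. The brown adipocyte score was 8.07 to 9.23 at 7 d and 6.97 to 7.9 at 5 d. The macrophage score was 2.98 to 4.03 at 7 d and 4.39 to 5.67 at 5 d. The mean skeletal muscle score was 3.44 at 7 d and 9.9 at 5 d. Their part in the rises of Fgf21 and Bmp8b from 5 d to 7 d was not tested.

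Neuregulin 4 moved little but with a small error. Nrg4 (ENSMUSG00000032311, chromosome 9, 55220222 to 55326844, minus strand) had 132.6, 196.4, 146.6, 207.4 and 121.4 CPM in control mice at 7 d and 82.13, 102.4, 69.01, 79.27 and 72.58 CPM with hormone. The groups were apart, a 1.98-fold fall (log2 fold change -0.99, SE 0.24, adjusted p = 0.00128). In Jag antibody mice the hormone difference was -0.49 (SE 0.24, adjusted p = 0.177), and the difference of the effects, 0.50 (SE 0.33, adjusted p = 0.504), was not called. Between antibodies Nrg4 was not called at any time. Nrg4 overlaps Fbxo22 and the pseudogene Gm15625 on the other strand, with sums of 3410 Fbxo22 counts in control mice at 7 d and 4731 with hormone.

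Nrg4 was also higher at 7 d than at 15 h in control mice (log2 fold change 0.66, SE 0.24, adjusted p = 0.0222). Without control mice 2 and 3 at 15 h, which had 44.7 and 80.92 CPM against 97.73 to 146.1 in the other 3, it was 0.34 (adjusted p = 0.289). Its order of groups ran from 7.30 ± 0.34 log2 CPM (control, 7 d) to 6.33 ± 0.22 (control with hormone; SD, n = 5), with neighbours in the order closer than the larger of their SDs.

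Vegfa was not called in any comparison. Vegfa (ENSMUSG00000023951, chromosome 17, 46016993 to 46032369, minus strand) had 442.1, 478.1, 754.3, 235.3 and 541.9 CPM in control mice at 7 d and 496.9, 574, 453.8, 453.6 and 576.1 CPM with hormone, a log2 difference of 0.06 (SE 0.24, adjusted p = 0.864). At 5 d it was 467.8, 328.9, 361.1, 306.5 and 225 CPM in control and 366.8, 547.3, 519.8, 641.6 and 654 CPM in Jag antibody mice, overlapping groups. That difference of 0.69 (SE 0.24, adjusted p = 0.0713) was called only with length and GC offsets (0.74, adjusted p = 0.0377) or without control mouse 1 (adjusted p = 0.0287). Jag antibody mice with hormone had 512.6 to 1028 CPM, 0.58 above control mice without it on the log2 scale (SE 0.24, adjusted p = 0.0545), which DESeq2 called (adjusted p = 0.0315) and edgeR did not.

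Il6 and Gdf15, the cytokines of the set, were high at 15 h in a few control mice. Il6 (ENSMUSG00000025746, chromosome 5, 30013114 to 30019981, plus strand) had 3, 355, 141, 7 and 19 counts in control and 3, 3, 52, 2 and 25 in Jag antibody mice at 15 h. Gdf15 (ENSMUSG00000038508, chromosome 8, 70629393 to 70632456, minus strand) had 6, 61, 79, 5 and 34 against 1, 3, 7, 0 and 17. Control mice 2 and 3 had the highest count of both. Neither difference between antibodies was called, at -2.32 (SE 1.10, adjusted p = 0.383) for Il6 and -2.61 (SE 0.90, adjusted p = 0.139) for Gdf15 on the log2 scale. Without those mice the values were 0.93 for Il6 and -1.36 for Gdf15.

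Macrophage markers summed to 375 to 4170 CPM in control and 267 to 538 CPM in Jag antibody mice at 15 h. The plot of Il6, Gdf15 and Adipoq against the macrophage score shows control mice 2 and 3 at its right edge, high in both cytokines and low in Adipoq. Those mice also had the highest neutrophil scores of their group (mean log2 CPM of 5 markers), 8.35 and 4.40. Jag antibody mice 8 and 10, highest in Il6 of their group, had macrophage scores of 4.71 and 4.37. Their neutrophil scores were 4.02 and 3.97, while Jag antibody mice 6 and 9, with 3 and 2 Il6 counts, had 2.99 and 2.77. Control mouse 5, with 19, had 1.34. Whether macrophages or neutrophils account for the Il6 and Gdf15 counts was not tested.

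**Figure D5:**
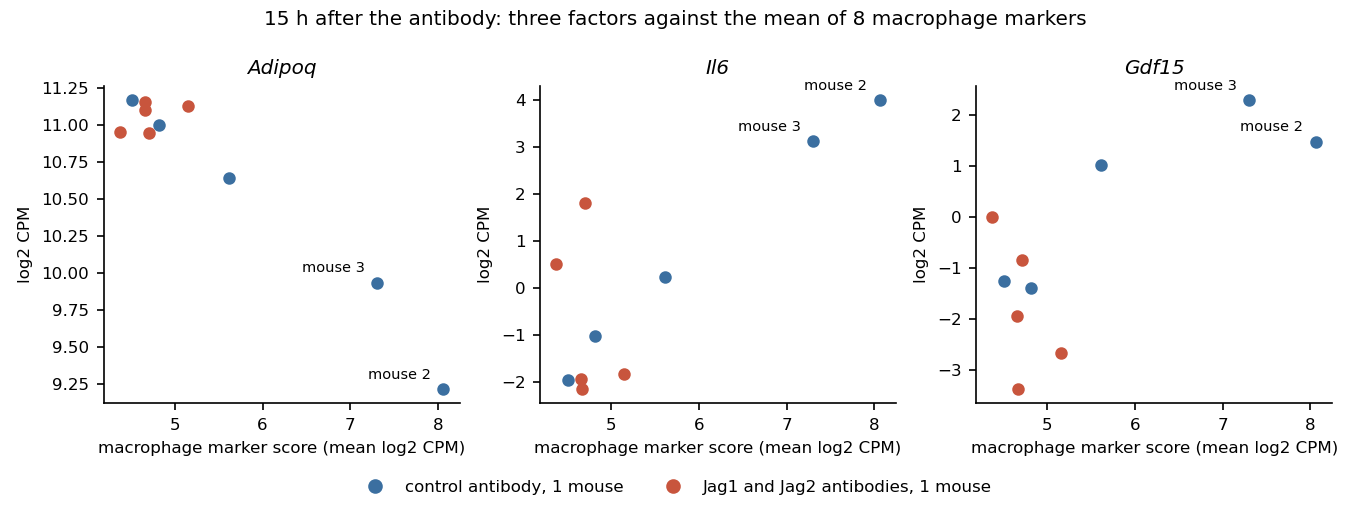
log2 CPM of Adipoq, Il6 and Gdf15 against the mean log2 CPM of 8 macrophage markers in the 10 mice at 15 h, coloured by antibody. Control mice 2 and 3, at 8.06 and 7.30 on the x axis, lie apart from the other 8.

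By 7 d Il6 had fallen in control mice to 44, 1, 0, 0 and 0 counts (log2 fold change -3.29, SE 1.17, adjusted p = 0.0213), and Gdf15 to 4, 14, 1, 2 and 7 (-2.31, SE 0.90, adjusted p = 0.035). Both calls were lost without control mice 2 and 3 at 15 h, where the values were -0.07 (adjusted p = 0.975) and -1.07 (adjusted p = 0.446). The Il6 call was also lost without the low-count filter or without control mouse 2, 4 or 5 at 7 d. That of Gdf15 was lost without the filter, with the replicate block, or without control mouse 1, 3, 4 or 5 at 7 d. Gdf15 rose with hormone in control mice, to 28, 7, 37, 98 and 38 counts (log2 fold change 2.17, SE 0.90, adjusted p = 0.048), with overlapping groups. That call was lost in 8 of 10 omissions of a mouse, with the highest adjusted p of 0.185 without hormone mouse 4. Il6 at 5 d was at 0 to 5 counts in control mice and 0 or 1 in Jag antibody mice, too few to compare.

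Jag antibody mice given hormone and control mice without it differ in both treatments. Fgf21 was 19.8-fold lower in the former (log2 fold change -4.31, SE 0.79, adjusted p = 0.00012) and Nrg4 1.63-fold lower (-0.71, SE 0.24, adjusted p = 0.0181), beside the lower Adipoq and Cfd given above. The Nrg4 call was lost without control mouse 2 (adjusted p = 0.0527) or 4 (0.0752) at 7 d, and that of Cfd without control mouse 4 (0.0519). Bmp8b, for which the antibody and hormone differences had opposite signs, was at -1.35 (SE 0.59, adjusted p = 0.0685). Lep was at -0.07 (SE 0.52, adjusted p = 0.928). Between the same groups the brown adipocyte markers were at 7.65 against 8.54 and the adipocyte markers at 10.15 against 10.58. Macrophage markers were at 5.59 against 3.44, pericyte and smooth muscle markers at 4.56 against 5.96 and the length slope at 0.12 against -0.24. Each of these differed without overlap (exact permutation p = 0.00794, adjusted 0.0442). Their part in the differences of the members was not tested.

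Whether an antibody difference itself depended on hormone or time was tested for each member. By edgeR, 0 members were called for antibody by hormone (0.00586% of genes), where 2 members (Lep and Fgf21) had an unadjusted p under 0.05. For antibody by time, 0 were called between 15 h and 5 d (0.0995% of genes), 0 between 15 h and 7 d (1.31%) and 0 between 5 d and 7 d (1.29%), with 4, 2 and 2 members at an unadjusted p under 0.05. DESeq2 called 1 member, Retn, between 15 h and 5 d and between 5 d and 7 d, and 0 in the others.

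Other genes of the members' pathways gave a setting for these values. With hormone in control mice, 13 of 24 receptors and co-receptors of the members were called higher and 0 lower, where 20.3% and 22.9% of all genes were, with a median log2 fold change of 0.68 against 0.04 over all genes tested. They included Il6ra, the Il6 receptor (2.13, SE 0.42, adjusted p = 0.000204), Lepr, the leptin receptor (1.95, SE 0.75, adjusted p = 0.0339), Ret, a signalling partner of the Gdf15 receptor (1.86, SE 0.34, adjusted p = 9.86e-05) and Nrp2, a Vegf co-receptor (1.62, SE 0.33, adjusted p = 0.000236). In Jag antibody mice 3 were higher (4.29% of all genes), namely Ret, Erbb3 and Cdh13, and 1 lower (5.21%), the adiponectin receptor Adipor2 (-0.86, SE 0.21, adjusted p = 0.00814). The macrophage, adipocyte, and progenitor and fibroblast scores given above also differed with hormone in control mice. Their part in the receptor values was not tested.

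Of 5 genes for folding and release of adiponectin, 2 fell with hormone in control mice (22.9% of all genes). They were Gstk1 (-1.39, SE 0.26, adjusted p = 0.000106) and Erp44 (-0.41, SE 0.13, adjusted p = 0.00913). Between antibodies with hormone Gstk1 was higher under the Jag antibodies (1.02, SE 0.26, adjusted p = 0.0365). Around Cfd, the complement genes C3ar1 (3.30, SE 0.65, adjusted p = 0.00021), C5ar1 (2.64, SE 0.58, adjusted p = 0.000591) and Cfp, which encodes properdin (1.85, SE 0.52, adjusted p = 0.00475), rose with hormone in control mice. C3ar1 and C5ar1 are receptors of myeloid cells, and the macrophage score given above was higher in the same comparison. Its part was not tested.

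Around Fgf21 and Gdf15, 6 of 14 genes of the integrated stress response fell with hormone in control mice (22.9% of all genes) and 1 rose (20.3%), with a median of -0.43. The transcription factor Atf4 was at -1.32 (SE 0.23, adjusted p = 6.47e-05), Ddit3 at -1.19 (SE 0.27, adjusted p = 0.000752) and Asns, asparagine synthetase, at -1.05 (SE 0.20, adjusted p = 0.000128), while Mthfd2 was higher (1.17, SE 0.44, adjusted p = 0.029). Of 14 immediate early genes around Il6, 6 fell with hormone in control mice (22.9% of all genes) and 0 rose (20.3%). The falls were led by Fosb (-4.87, SE 1.08, adjusted p = 0.000653). Of 10 hypoxia-response genes around Vegfa, 2 rose (Slc2a1 and Epas1) and 3 fell (Pdk1, Higd1a and Bnip3), shares near those of all genes. The adipocyte and macrophage scores, mitochondrial share and length slope given above also differed with hormone in control mice. Their part in the values of these 3 lists was not tested.

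At 5 d, 15 of 48 other secreted factors were lower under the Jag antibodies (5.93% of all genes) and 0 higher (2.09%), with a median of -0.91 against 0.04 over all genes. Among them were Mstn, the muscle growth inhibitor myostatin (-10.16, SE 3.22, adjusted p = 0.0477), C1qtnf3, an adiponectin relative (-4.64, SE 0.97, adjusted p = 0.00542), and Enho, which encodes adropin (-3.80, SE 0.96, adjusted p = 0.0143). The muscle score also differed between these groups, and its part in the list was not tested. With hormone 2 were lower under the Jag antibodies, Ptgds and C1qtnf6 (0.439% of all genes), and 0 higher (0.697%). At 15 h 2 were lower, Il10 and Metrnl (0.902% of all genes), and 0 higher (0.234%). Without control mice 2 and 3 the comparison at 15 h called 3 of all genes in place of 194.

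With hormone in control mice, 15 of 48 other secreted factors rose (20.3% of all genes) and 4 fell (22.9%). The median log2 fold change was 0.61 against 0.04 over all genes. The largest rises were those of Il10 (4.86, SE 1.37, adjusted p = 0.00458), C1qtnf3 (2.29, SE 0.93, adjusted p = 0.0443), Ptgds (2.12, SE 0.52, adjusted p = 0.00156) and Il18 (1.83, SE 0.57, adjusted p = 0.00965). The macrophage score given above was also higher in that comparison, and its part was not tested. The 4 that fell were Rbp4, retinol binding protein (-1.93, SE 0.38, adjusted p = 0.000165), Rarres2, chemerin (-1.29, SE 0.40, adjusted p = 0.00913), Edn1 (-1.11, SE 0.36, adjusted p = 0.012) and Vegfb (-0.99, SE 0.29, adjusted p = 0.00642). Rbp4 and Rarres2, which are adipokines, also fell in Jag antibody mice (-1.62 and -1.40, adjusted p = 0.00507 and 0.0232).

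Across the 40 mice, 12140 genes with a mean of at least 1 log2 CPM were compared with each member's log2 CPM. The closest to Adipoq was Gpx8 (Pearson r = 0.922), followed by Pla2g16 (0.914) and the lipid droplet gene Cidec (0.903). Nrg4 was closest to Cryz (0.91) and to the brown fat gene Cidea (0.901), Retn to Trf (0.878), Il6 to Wsb1 (0.86), Cfd to Ifi27l2a (0.853), Vegfa to Myo19 (0.847), Bmp8b to Adcy10 (0.841), Fgf21 to Thg1l (0.833), Gdf15 to Haus8 (0.79) and Lep to Spry2 (0.729). These correlations describe mice that share groups, cell composition and libraries, and are no test.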

How the data were processed

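Per the labels, total RNA of brown fat was read as single-end libraries on an Illumina HiSeq. The submitters' processing notes name GSNAP and limma without version or role. The build, the counting program and strand use are not given in the sources used here. The authors deposited whole-number counts per Ensembl gene for 52636 genes in 40 mice and, over the same genes, FPKM values, which served only as an alternative. Symbols matched 52403 identifiers. Coordinates are from GENCODE M21 (GRCm38).

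Counts of the 8 groups of 5 mice entered 1 edgeR 4.0.16 model (R 4.3.3, filterByExpr, TMM, quasi-likelihood F test, Benjamini-Hochberg adjustment over 17079 genes, threshold 0.05). SEs are those implied by F, and log2 CPM has a prior count of 2. There were 10 comparisons, and 4 were added after seeing the data: the antibody by time differences and 7 d against 5 d in control mice. Marker scores were compared by exact two-sided permutation of 5 against 5 mice, 252 arrangements. The replicate is the mouse. Ratios of summed counts carry exact binomial 95% intervals.

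Alternatives were DESeq2 1.42.0, RLE factors, no filter, a muscle covariate, only the groups compared, limma 3.58.1 on log2(FPKM + 1), length and GC offsets, a replicate block, leaving out each mouse and, added later, leaving out control mice 2 and 3 at 15 h. The test was checked on simulated counts. The members and gene lists were chosen with earlier results of these data known. Named genes are the members, called pathway genes with the largest log2 fold changes (up to 4 per direction and list), and the 3 genes most correlated with each member. Some genes of these lists are not reported here.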

Additional observations from a re-analysis of the deposited data

Results flagged for a closer look

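Of 80 sets of 5 mice (10 members in 8 groups), 5 held a log2 CPM whose gap to its nearest neighbour was over 0.71 of the range of its group, and chance gives about 4. Lep in Jag antibody mouse 8 at 7 d was 2.41, with the nearest mouse at 5.27 and 142 counts behind the value. Bmp8b in control mouse 2 with hormone was 4.84 against 3.34 for the next mouse, from 739 counts, and the call of Bmp8b with hormone in control mice was lost without it.

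The other 3 concern Il6. Control mouse 1 at 7 d was at 1.29 with 44 counts, and the nearest mouse at -2.44. Control mouse 1 at 5 d was at -2.02 with 5 counts, and Jag antibody mouse 8 at 5 d at -2.81 with 1 count, levels at which single reads decide the value.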

How the results depend on the processing

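Of 26 calls of a member over 14 comparisons, 11 were kept in every setting and with every mouse left out, and 15 were lost somewhere. No called value turned its sign, while 126 of 2868 alternative values changed sign with no call on either side. The number of members called moved as follows, and the cause was not tested except where fewer genes or mice entered. With the muscle covariate, 5 d had 0 in place of 3. Without the filter, 7 d had 0 in place of 2, 7 d against 15 h had 3 in place of 5 in control mice and 0 in place of 1 in Jag antibody mice. With only the groups compared, fewer members passed the filter (6 at 5 d, 8 at 7 d), and the counts were 1 at 5 d, 0 at 7 d, 2 in place of 1 with hormone, 2 for 7 d against 15 h in control mice and 0 in place of 2 for 7 d against 5 d. By limma they were 1 at 7 d, 0 for 7 d against 15 h in Jag antibody mice and 1 for 7 d against 5 d. RLE factors, length and GC offsets, and these offsets with the replicate block gave 0 for 7 d against 15 h in Jag antibody mice. DESeq2 gave 1 in place of 0 for antibody by time from 15 h to 5 d and from 5 d to 7 d. Without control mice 2 and 3 at 15 h, 7 d against 15 h in control mice had 2. With each mouse left out the counts ran from 2 to 4 at 5 d, 0 to 2 at 7 d, 2 to 5 for Jag antibody mice with hormone against control mice, 2 to 5 and 0 to 1 for 7 d against 15 h in control and Jag antibody mice, and 0 to 1 for antibody by time from 5 d to 7 d.

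Counts of all genes called also moved by over 1.5 times. At 15 h 194 became 26 without the filter or by limma, 118 with muscle, 0 with only the groups, 303 with offsets, 577 by DESeq2 and 3 without the 2 mice. At 5 d 1369 became 837 without the filter, 89 with muscle and 431 with only the groups. At 7 d 427 became 191, 53 with only the groups and 858 by DESeq2. With hormone 194 became 117 without the filter, 694 with only the groups, 298 with offsets, 505 by limma and 449 by DESeq2. Hormone in Jag antibody mice went from 1622 to 990 without the filter and 2782 with only the groups, and 7 d against 15 h from 7698 to 4490 without the 2 mice in control mice and from 3126 to 2057 and 1905 (no filter, block with offsets) in Jag antibody mice. For 7 d against 5 d in control mice 1559 became 818 without the filter, 382 with muscle and 161 with only the groups. Antibody by hormone went from 1 to 0 in 6 settings, 36 by limma and 9 by DESeq2. Antibody by time ran from 0 to 498 (17 in the text's model) from 15 h to 5 d, 7 to 638 (223) from 15 h to 7 d and 0 to 964 (220) from 5 d to 7 d, the highest by DESeq2 each time. Leaving out 1 mouse moved the counts as well: at 15 h to 6 (control mouse 2) or 753 (control mouse 1), at 5 d to 385 (control mouse 5) or 2726 (control mouse 1), at 7 d to 144 (control mouse 2) or 848 (control mouse 3) and with hormone to 80 (Jag antibody mouse 10). It gave as few as 1048 for hormone and 1653 for 7 d against 15 h in Jag antibody mice, 492 to 2642 for 7 d against 5 d, and 2 to 151, 10 to 696 and 5 to 968 for antibody by time in the order above, so the shares of all genes in the text carry that uncertainty.

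The replicate block applies to hormone and time comparisons. Deviations of same-numbered mice had mean correlations of 0.0982 to 0.185 (lowest pair -0.337), and at most 3 of 5 mice correlated best with their own number, so the numbers were not taken to pair the mice. The block ended 1 call, Gdf15 from 15 h to 7 d in control mice (-2.09, adjusted p = 0.0685). No paired analysis was possible for the antibody comparisons because control and Jag antibody mice share no numbers. Depth limits Fgf21, Bmp8b, Il6 and Gdf15, whose libraries often held fewer than 10 counts.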

Other observations

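Among 48 secreted factors outside the 10 members, 6 were lower at 7 d than at 15 h in Jag antibody mice (7.93% of all genes) and 3 higher (10.4%), with a median log2 difference of -0.003. The lower ones with the largest differences were Lcn2, an iron-binding acute phase protein (-4.38, SE 1.02, adjusted p = 0.00425), the cytokine Il1b (-3.67, SE 1.11, adjusted p = 0.0218) and the chemokine Ccl2 (-3.30, SE 0.98, adjusted p = 0.0192). In control mice 15 were lower (23.5% of all genes) and 5 higher (21.6%), and these 3 genes were at -4.38, -4.68 and -5.30, each called lower. The neutrophil score of Jag antibody mice was 0.43 at 7 d against 2.89 at 15 h (exact permutation p = 0.0317, adjusted 0.0929), and its part in these values was not tested. Control mice 2 and 3 at 15 h had the highest neutrophil scores of their group, 8.35 and 4.40. Values of genes outside the members without those mice are not given here. Rbp4, which fell with hormone, was higher at 7 d than at 15 h in control mice (2.02, SE 0.38, adjusted p = 8.77e-05).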
